A study of Mus musculus with 64 samples.

Results

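SOX2 sites of high SOX2 level are positions in the mouse genome at which SOX2 was found by chromatin immunoprecipitation and sequencing (ChIP–seq) in cells with much SOX2 and was missing from the strongest peaks of cells with little. The members were chosen from the SOX2 libraries alone. The 20000 peaks of highest deposited fold (the signal of a peak over its local background) were kept from each of 12 SOX2 libraries and peaks sharing at least 1 bp were merged, which gave 125248 SOX2 sites. Of these, 89374 had a kept peak in 1 library only. Shares over all SOX2 sites thus mostly describe sites that no other library repeated. A site was a member if it held a kept peak in at least 5 of the 6 high-SOX2 libraries and in at most 1 of the 6 low-SOX2 libraries. The rule found 1371 members, 1.09% of all sites. The SOX2 values given here therefore describe how the members were picked and were not tested. The occupancy of the other 4 targets, the position of the members and the sequence under them had no part in the choice.

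There were 2 high-SOX2 and 2 low-SOX2 conditions with 3 biological replicates each. Naive embryonic stem cells (naive ESCs) were the wild-type HM1 TetON line in 2i, a medium with the GSK3 inhibitor CHIR99021, which activates WNT signalling, and the MEK inhibitor PD0325901. Caudal epiblast-like cells (CEpiLCs), which resemble the embryonic progenitors of spinal cord and trunk mesoderm, were the same line differentiated with bFGF and the WNT secretion inhibitor LGK974 and then with CHIR99021, up to 72 h. SOX2-TetON cells carried edited, inactive copies of the endogenous Sox2 gene and a Sox2 transgene at the Hprt locus that is transcribed while doxycycline is present. They were taken through the CEpiLC protocol with doxycycline kept on at 1 µg/ml (SOX2-ON, high SOX2) or withdrawn (SOX2-OFF, low SOX2). Naive ESCs and SOX2-ON cells thus shared a high SOX2 level but neither genotype nor culture medium, and the SOX2-TetON line was an edited clone. Within the wild-type line the SOX2 level and the culture stage cannot be told apart, whereas within SOX2-TetON cells only doxycycline differed. Every condition except SOX2-OFF and SOX2-ON had intact Sox2, and all 4 conditions were exposed to CHIR99021.

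SOX2 is an HMG-box transcription factor that bends DNA at a short AT-rich sequence and, together with OCT4, holds the enhancers of pluripotency genes in embryonic stem cells. It is also the factor that marks neural progenitors, and its level falls as the epiblast turns into caudal tissue. β-catenin is the transcriptional effector of WNT signalling. It does not bind DNA itself and is carried to enhancers by the TCF/LEF family, here LEF1, TCF7L1 and TCF7L2, whose HMG boxes read a sequence closely related to that of SOX2. In embryonic stem cells TCF7L1 acts mostly as a repressor, whereas LEF1 is usually an activator.

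The DNA beneath 10 members is given to show the sequences that SOX2 occupied. Each line is read from the plus strand of GRCm38 (mm10, RefSeq) and centred on the summit of the strongest SOX2 peak. Capitals mark exact matches on either strand to the SOX sequence (CATTGT or CTTTGT, or their reverse complements ACAATG and ACAAAG), to the joined OCT-SOX composite, or to the TCF sequence (CTTTGAA or CTTTGAT, or their reverse complements). The first 5 members were taken from those of highest SOX2 fold or, in the case of Klf2, as the strongest member next to a naive pluripotency gene. All 5 hold a SOX match, which not every strong member did. Windows of the same length near Cdc37l1 and Abcb5, both also among the strongest by fold, hold no marked sequence and are not printed. Each is named after its nearest protein-coding gene.

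Apol7a, chr15:77355469-77355569: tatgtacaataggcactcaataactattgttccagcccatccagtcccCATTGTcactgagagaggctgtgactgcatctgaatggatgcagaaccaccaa
Tnfrsf19, chr14:60957833-60957933: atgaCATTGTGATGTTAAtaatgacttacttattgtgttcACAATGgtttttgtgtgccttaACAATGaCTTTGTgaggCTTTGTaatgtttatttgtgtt
Il6st, chr13:112462582-112462682: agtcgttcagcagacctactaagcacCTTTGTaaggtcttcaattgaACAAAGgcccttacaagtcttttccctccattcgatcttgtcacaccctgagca
Gm26992 within Xist and Tsix, chrX:103472432-103472532: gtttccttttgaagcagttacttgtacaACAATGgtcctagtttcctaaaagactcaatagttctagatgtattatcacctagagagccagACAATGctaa
Klf2, chr8:72334375-72334475: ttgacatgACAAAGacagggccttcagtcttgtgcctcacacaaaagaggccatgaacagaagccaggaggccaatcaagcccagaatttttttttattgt

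The other 5 members were chosen because β-catenin or a TCF factor followed SOX2 there, as described further on, and because they hold TCF matches.

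Pax3, chr1:78168101-78168201: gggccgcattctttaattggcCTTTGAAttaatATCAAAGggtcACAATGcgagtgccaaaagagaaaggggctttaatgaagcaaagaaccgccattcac
Fam49b, chr15:64044191-64044291: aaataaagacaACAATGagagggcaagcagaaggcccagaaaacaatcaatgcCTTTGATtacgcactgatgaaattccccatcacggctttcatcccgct
Herc1, chr9:66370518-66370618: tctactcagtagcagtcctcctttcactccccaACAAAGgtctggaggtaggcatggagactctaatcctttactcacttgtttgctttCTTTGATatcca
Errfi1, chr4:150826942-150827042: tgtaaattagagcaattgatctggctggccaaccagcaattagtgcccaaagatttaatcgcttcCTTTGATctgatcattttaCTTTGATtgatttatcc
Cdadc1, chr14:59593046-59593146: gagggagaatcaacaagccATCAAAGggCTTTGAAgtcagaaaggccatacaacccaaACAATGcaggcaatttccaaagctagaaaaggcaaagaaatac

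Some libraries stood apart. The SOX2 list of naive ESC replicate 1 held 907862 peaks where the others began at 29298, and 356 of the 774 members with a peak in 5 of 6 high-SOX2 libraries lacked it only there. LEF1 naive ESC replicate 1, TCF7L1 SOX2-ON replicate 1 and TCF7L1 CEpiLC replicate 1 were the other 3, and their index differences and counts of members are also given without them, a choice made after seeing the data. The deposited lists hold no read counts, so sequencing depth is unknown. The number of peaks in a list ranged from 1628 to 991719 over the 60 libraries.

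By the rule itself, all 1371 members had a kept SOX2 peak in at least 2 of 3 naive ESC and at least 2 of 3 SOX2-ON libraries. A kept peak was present at 74.0%, 96.9% and 93.1% of members in naive ESC replicates 1, 2 and 3 and at 92.4%, 95.2% and 91.9% in SOX2-ON. The shares were 14.4%, 5.76% and 4.08% in CEpiLCs and 1.68%, 4.52% and 3.43% in SOX2-OFF cells. The gap is what the rule asked for, with 386 members in 6 of 6 high and 0 of 6 low libraries and 253 just inside it, in 5 of 6 and 1 of 6.

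The median deposited SOX2 fold over the high-SOX2 libraries with a kept peak ran from 6.56 to 67.3 among members, with a median of 12.7. At the 253 members just inside the rule the median was 11.6, at the 1402 sites left out with a peak in 4 of 6 high-SOX2 libraries it was 10.3, and at the 454 left out with peaks in 2 low-SOX2 libraries it was 13.2. The edges of the set are thus not set off from it by their fold. At the 1964 sites where each condition had a kept SOX2 peak in 2 or 3 of its libraries, called kept sites below, the median was 14.2.

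Low SOX2 was not always an absence of SOX2. When every deposited peak was counted rather than the 20000 strongest, 98.0% to 99.6% of members held a SOX2 peak in each high-SOX2 library. The same count gave 23.5%, 32.8% and 16.6% in CEpiLCs and 6.13%, 40.4% and 31.3% in SOX2-OFF cells. The median fold of these peaks was 10.4 to 13.3 in the high-SOX2 libraries and 4.32 to 5.01 in the low-SOX2 libraries. Of the 1371 members, 352 (25.7%) had no deposited SOX2 peak in any low-SOX2 library and 766 (55.9%) had 1 at most. Sites were also picked from 2 replicates of each condition and read in the replicate left out. Of these, 59.5% to 92.4% held a kept peak in the high-SOX2 libraries. The low-SOX2 libraries had 3.51% to 18.7%, against 6.37% to 16.9% of all SOX2 sites of those 2 replicates. Picked sites lay below all sites in each low-SOX2 library except CEpiLC replicate 1, where they had 18.7% against 16.9%.

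The 2 high-SOX2 conditions did not weigh the members alike. The ratio of the median naive ESC fold to the median SOX2-ON fold had a median of 1.12 and ran from 0.119 to 5.47. It was at least 2 at 14.3% of members and at most 0.5 at 7.37%. Every kept naive ESC fold lay above every kept SOX2-ON fold at 398 members and below them at 193. The folds were not adjusted for the scale of each library. At kept sites the median fold of deposited SOX2 peaks was 15.3, 14.62 and 13.99 in naive ESCs and 11.46, 11.65 and 14.96 in SOX2-ON cells. The ratio and these counts of members were not taken at kept sites or at all SOX2 sites. Whether the tilt towards naive ESCs is particular to members was thus not tested.

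Of the 386 members in 6 of 6 high and 0 of 6 low libraries, the strongest lay at chr15:77355257-77356210, 40939 bp downstream of Apol7a, a gene of the apolipoprotein L family. Its SOX2 fold was 30.1, 44.6 and 40.5 in naive ESCs and 40.7, 52.6 and 41.8 in SOX2-ON cells, and no low-SOX2 library listed a peak. Naive ESC and SOX2-ON values overlapped there. Next came a site over an exon of Cdc37l1, which encodes a co-chaperone of HSP90, with 46.4, 47.9 and 61.1 in naive ESCs against 17.8, 18.9 and 32.6 in SOX2-ON cells. The site within an intron of the transporter gene Abcb5 had the opposite order, with 21, 31.2 and 22.8 in naive ESCs and 51.1, 53.9 and 43.2 in SOX2-ON cells. A further 6 of the 10 strongest of these had median folds between 28.5 and 32.5 and lay nearest to Tnfrsf19, Il6st, Kti12, Gss, Grik2 and Gm26992. Grik2 encodes a glutamate receptor subunit and Gss encodes glutathione synthetase.

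Il6st and the Xist locus are of known interest in pluripotent cells. Il6st encodes gp130, the signal-transducing receptor chain for LIF, the cytokine on which serum-grown mouse stem cells depend. The site 1438 bp upstream of Il6st (chr13:112462122-112463413) had SOX2 folds of 36.1, 46.8 and 41.5 in naive ESCs and 19.8, 27.4 and 20.4 in SOX2-ON cells, and below the kept peaks CEpiLC replicates 1 and 2 listed 3.90 and 3.45 and SOX2-OFF replicate 2 listed 4.57. Xist is the non-coding RNA that silences an X chromosome, and Tsix is its antisense repressor. The summit at chrX:103472221-103472927 lay within the annotated spans of both and in an intron of Gm26992, with SOX2 folds of 34.6, 38.1 and 42.6 in naive ESCs and 12, 22.3 and 18.6 in SOX2-ON cells. It was listed at 4.33, 5.01 and 4.88 in CEpiLCs and at 6.47 in SOX2-OFF replicate 2.

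Members lay away from gene starts. At 1000 bp, 29 of 1371 (2.12%, 95% Wilson interval 1.48 to 3.02, counting error only) had their summit within this distance of the start of a protein-coding gene, against 10.5% of all SOX2 sites, 16.4% of kept sites and 22.1% of the 865 sites of the reverse rule (low-SOX2 sites). With a limit of 2500 bp the share of members was 5.47%. Introns held 617 members (45.0%), exons 21 (1.53%) and intergenic DNA 704 (51.3%). The median distance to the nearest start was 34207 bp, compared with 18210 bp for low-SOX2 sites and 29908 bp for all SOX2 sites. The share lying more than 100 kb from a start was 25.5% among members and among all SOX2 sites.

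Merged members had a median width of 779 bp, between the 643 bp of low-SOX2 sites and the 1036 bp of kept sites, while SOX2 sites as a whole had 251 bp. A wider site has more room to overlap a peak of another target. Members were scattered, since 161 of them (11.7%) had another within 50 kb, in 77 groups of at most 3. The X chromosome carried 61 members, 4.45% of them, against 1.97% of all SOX2 sites and 3.26% of kept sites.

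Of 21924 protein-coding genes, 1219 (5.56%) were the nearest gene to at least 1 member, and 1091 of these had exactly 1. Auts2, a neurodevelopmental gene whose product associates with Polycomb complexes, had 5. Prdm1, which encodes BLIMP1, a repressor needed to specify germ cells, and 1810013L24Rik had 4 each. The 17 genes with 3 members included Anks1b, Arl4a, Bcor, Cdh6, Cemip2, Cited2 and Cobl, the leading ones by alphabet. Bcor encodes a corepressor of a Polycomb complex and Cited2 a regulator that binds CBP and p300. The nearest gene is a label of position here, and long genes with wide flanks collect more sites.

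Naive pluripotency genes held the largest share of the lists examined. A member was nearest to 13 of 35 of them (37.1%): Dppa2, Esrrb, Il6st, Jarid2, Klf2, Klf4, Mycn, Nr5a2, Sall4, Sox2, Tbx3, Tdh and Zfp281. Low-SOX2 sites were nearest to 4 and kept sites to 23 of the same 35, so most genes of the list also had a site that was occupied in every condition. Of the 19 primed epiblast genes found in the annotation, 2 had a member, the DNA methyltransferase gene Dnmt3a and Enpp2. A low-SOX2 site was nearest to 1 and a kept site to 7 of these 19. All genes had a kept site in 7.42% and a low-SOX2 site in 3.65% of cases.

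The gene Klf2 encodes a Krüppel-like factor of the naive state. The member 15392 bp downstream of it (chr8:72333352-72334727) was far stronger in naive ESCs, with SOX2 folds of 60.1, 71.9 and 54.2, than in SOX2-ON cells, with 8.15, 15.7 and 11. The fold was 5.01 and 6.01 in CEpiLC replicates 2 and 3 and 3.06 in SOX2-OFF replicate 2. The 4 conditions thus fell into 3 levels there, without overlap between naive ESCs and SOX2-ON cells. The member 68036 bp downstream of Klf4, another Krüppel-like factor gene, did not separate them, with 27.2, 21.6 and 16.2 in naive ESCs and 21.8, 27.6 and 24.4 in SOX2-ON cells.

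Genes of WNT feedback had a member in 7 of 23 cases (30.4%), namely Axin2, Lgr4, Porcn, Tcf7, Tcf7l1, Tcf7l2 and Znrf3. Low-SOX2 sites were nearest to 3 and kept sites to 7 of the 23. Axin2 and Znrf3 encode negative regulators of the pathway, Lgr4 a receptor for R-spondins and Porcn the enzyme that acylates WNT ligands. Tcf7l1 had 2 members, and the stronger of them, 6046 bp upstream, had a median SOX2 fold of 17.5. Neural transcription factor genes had a member in 10 of 40 cases (25.0%), which were En1, Msx1, Neurog1, Nkx6-1, Nr2f1, Pax3, Pou3f3, Sox3, Sp8 and Zic4. A low-SOX2 site was nearest to 6 and a kept site to 11 of the 40. Pax3, which acts at the neural plate border and in muscle precursors, had 2, both in introns. Only 4 of these 40 genes (10.0%) had their start within 50 kb of a member, against 6.48% of all protein-coding genes.

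FGF and ERK feedback genes had a member in 4 of 19 cases (21.1%, against 5.56% of all protein-coding genes), with 2 at the receptor gene Fgfr1 and the rest at Etv5, Il17rd and Spry2. More of these 19 had a low-SOX2 site (7) or a kept site (13) nearest to them. Nodal and BMP pathway genes had a member in 5 of 25 cases (20.0%), which were Acvr2a, Bmp7, Furin, Id4 and Smad7. A low-SOX2 site was nearest to 4 and a kept site to 8 of the 25. Genes of the caudal epiblast and primitive streak had a member in 4 of 46 cases (8.70%, beside the 5.56% of all protein-coding genes), which were Fgf3, Rspo3, Tbx3 and Wnt5a. Low-SOX2 sites were nearest to 14 of the 46 and kept sites to 15. Tbx3 belongs to this list and to the naive one, and its member lay 24057 bp downstream. No list was tested, since the lists were put together with results of these data known.

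The question put to the other 4 targets was whether they occupied the members when SOX2 did. To set the 12 lists of a target on a common footing, only as many of their strongest peaks by fold were kept as the shortest list held. This left 3423 β-catenin, 4443 LEF1, 1628 TCF7L1 and 4134 TCF7L2 peaks per library. β-catenin peaks lay at 318, 341 and 328 members in naive ESCs and at 324, 356 and 259 in SOX2-ON cells. They lay at 3, 4 and 0 members in CEpiLCs and at 17, 15 and 15 in SOX2-OFF cells. High-SOX2 and low-SOX2 libraries did not overlap, while the share of all SOX2 sites with a β-catenin peak stayed between 2.05% and 2.68% in the 12 libraries. As shares of members the conditions had 24.0% ± 0.841 (SD, n = 3), 22.8% ± 3.61, 0.170% ± 0.152 and 1.14% ± 0.0842.

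LEF1 peaks lay at 5, 331 and 72 members in naive ESCs and at 142, 402 and 164 in SOX2-ON cells, against 10, 9 and 6 in CEpiLCs and 9, 5 and 8 in SOX2-OFF cells. The high-SOX2 libraries of LEF1 were widely spread, and naive ESC replicate 1, which had a peak at 249 SOX2 sites of any kind, fell among the low-SOX2 libraries. TCF7L1 peaks lay at 148, 168 and 167 members in naive ESCs, at 41, 177 and 145 in SOX2-ON cells, at 1, 0 and 1 in CEpiLCs and at 5, 6 and 7 in SOX2-OFF cells. The TCF7L1 groups did not overlap, although SOX2-ON replicate 1 stood well below the other 5 high-SOX2 libraries. TCF7L2 peaks lay at 37, 154 and 60 members in naive ESCs, at 42, 59 and 62 in SOX2-ON cells, at 4, 5 and 4 in CEpiLCs and at 7, 10 and 11 in SOX2-OFF cells. The TCF7L2 groups did not overlap either, and the shares of members were the lowest of the 4 targets in SOX2-ON cells, at 3.96% ± 0.787 (SD, n = 3).

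**Figure D1:**
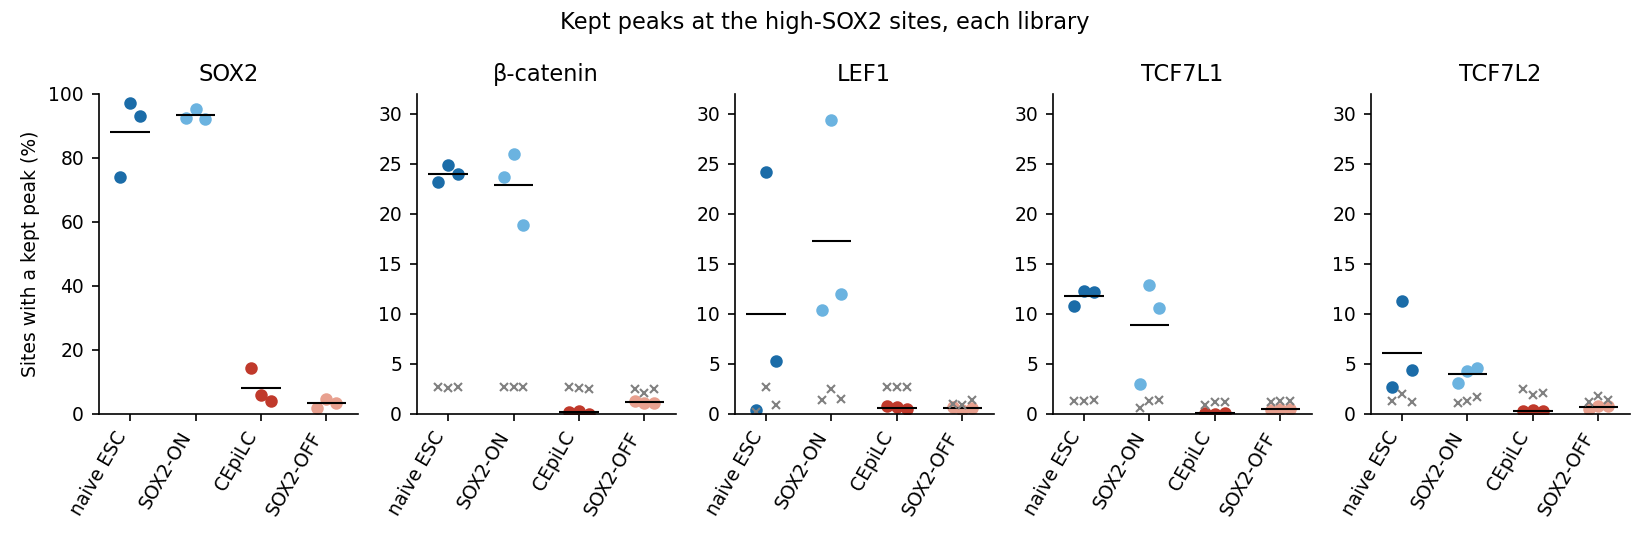
Share of the 1371 members with a kept peak (percent, y axis; the SOX2 panel runs to 100 and the others to a lower limit) by condition, with a dot per library, a bar at the mean of 3 replicates and, for the 4 other targets, a grey cross at the share of all SOX2 sites with a kept peak. SOX2 chose the members. The β-catenin, TCF7L1 and TCF7L2 points of naive ESCs and SOX2-ON all lie above those of CEpiLC and SOX2-OFF, and 1 naive ESC point of LEF1 lies at the level of the low-SOX2 libraries.

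The comparison was tested on an index for each library, the log2 odds of a kept peak at members minus the log2 odds at all other SOX2 sites, so that a library with more peaks at SOX2 sites in general does not score higher. For β-catenin the index was 3.69 ± 0.11 in naive ESCs and 3.57 ± 0.32 in SOX2-ON cells, against -4.19 ± 1.70 in CEpiLCs and -1.01 ± 0.16 in SOX2-OFF cells (SD, n = 3 each). Among these kept peaks, members held β-catenin more often than other SOX2 sites did in each high-SOX2 library and less often in each low-SOX2 library. High-SOX2 minus low-SOX2 differences of the index, averaged over the 2 cell lines, were 6.23 (β-catenin), 5.93 (TCF7L1), 4.55 (LEF1) and 3.62 (TCF7L2). Without naive ESC replicate 1 the LEF1 value was 4.91, and TCF7L1 had 6.07 without SOX2-ON replicate 1 and 6.14 without CEpiLC replicate 1. Libraries were permuted between SOX2 levels inside each line (exact permutation test, two-sided, 12 libraries per target), and each of the 4 had p = 0.005 and an adjusted p of 0.005 (Benjamini-Hochberg over the 4), the smallest that the 400 assignments can give.

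Within the wild-type line the index was higher in naive ESCs than in CEpiLCs by 7.88 (β-catenin), 7.28 (TCF7L1), 4.60 (LEF1) and 4.59 (TCF7L2). Within SOX2-TetON cells, where doxycycline alone differed, SOX2-ON exceeded SOX2-OFF by 4.57, 4.58, 4.50 and 2.66 in the same order. The 3 libraries of each high-SOX2 condition lay above the 3 of the low-SOX2 condition for every target and line on the index, with an exact permutation p of 0.1, the smallest that 3 against 3 allows. As plain shares of members the differences were 22.8 (β-catenin), 13.0 (LEF1), 10.0 (TCF7L1) and 4.53 (TCF7L2) percentage points, with exact permutation p-values of 0.005, 0.02, 0.005 and 0.005. Without the library that stood apart, LEF1 had 15.4 points.

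Counting all deposited peaks showed how much of the members each target reached at a lower bar. β-catenin had a peak of any strength at 65.3% to 92.1% of members in the high-SOX2 libraries and at 1.09% to 30.4% in the low-SOX2 libraries. TCF7L1 had one at 71.7% to 95.8% of members in 5 of the high-SOX2 libraries and at 11.2% in SOX2-ON replicate 1, with 0.0729% to 20.7% in the low-SOX2 libraries. LEF1 had one at 53.8% to 76.7% in 5 of the high-SOX2 libraries and at 10.9% in naive ESC replicate 1, with 0.729% to 19.0% in the low-SOX2 libraries, so that this replicate overlapped them. For TCF7L2 the ranges overlapped, at 11% to 46.9% and 0.292% to 25.7%. With full lists, 923 members had a β-catenin peak and 847 a TCF7L1 peak in at least 5 of 6 high-SOX2 libraries, compared with 335 for LEF1 and 66 for TCF7L2. With at least 4 of the 5 others, LEF1 had 638 without naive ESC replicate 1 and TCF7L1 had 1105 without SOX2-ON replicate 1. The share of all SOX2 sites meeting these rules was not counted. Full lists also differ in length between targets, so these counts do not rank the targets. Over all SOX2 sites the full lists of β-catenin reached 9.80% to 25.6% in the high-SOX2 and 2.05% to 20.2% in the low-SOX2 libraries. The ranges were 4.62% to 29.8% and 1.87% to 13.1% (LEF1), 1.82% to 32.1% and 0.839% to 13.2% (TCF7L1) and 3.49% to 17.4% and 1.73% to 19.6% (TCF7L2). By this count the share at members was not below that of all SOX2 sites in every low-SOX2 library. In SOX2-OFF cells it was higher for TCF7L1 in each replicate and for β-catenin, LEF1 and TCF7L2 in replicates 1 and 3. β-catenin was listed there at 30.4%, 1.09% and 11.3% of members against 20.2%, 2.05% and 9.94% of all SOX2 sites, and TCF7L1 at 20.7%, 11.8% and 17.1% against 11.7%, 7.92% and 11.2%. LEF1 had 19.0%, 1.68% and 16.8% against 13.1%, 1.87% and 12.1%. TCF7L2 had 3.79%, 0.729% and 25.7% against 3.46%, 1.73% and 17.0%. In CEpiLCs members were higher for TCF7L1 in replicate 2, at 17.3% against 13.2%. The same held for TCF7L2 in replicates 2 and 3, at 25.0% and 21.1% against 19.6% and 17.4%. The full lists of a target differed in length by over 100-fold, which the shortened lists remove.

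At single members a target was said to follow SOX2 if it met the rule used for SOX2 itself, with a kept peak in at least 5 of 6 high-SOX2 and at most 1 of 6 low-SOX2 libraries. β-catenin followed SOX2 at 115 members (8.39%), where 0.327% of all SOX2 sites met the same rule, and went the opposite way at 0 members, where 0.517% of all sites did. Among kept sites 107 of 1964 (5.45%) followed, and among low-SOX2 sites 0 of 865. TCF7L1 followed at 38 members (2.77%) against 0.149% of all sites, without SOX2-ON replicate 1 at 70 (5.11%) against 0.243%, and without CEpiLC replicate 1 at 38 (2.77%) against 0.156%. LEF1 followed at 4 members (0.292%) against 0.0303%, and without naive ESC replicate 1 at 43 (3.14%) against 0.149%. TCF7L2 followed at 7 members (0.511%) against 0.0391%. Kept sites had larger shares than members for these targets, with TCF7L1 at 62 (3.16%), LEF1 at 16 (0.815%) and TCF7L2 at 17 (0.866%). For TCF7L1 the kept-site share was 3.46% without CEpiLC replicate 1, again above members. It was 4.43% without SOX2-ON replicate 1, below members, as was the 3.00% of LEF1 without naive ESC replicate 1. The opposite rule held at 0 members for LEF1, TCF7L1 and TCF7L2, where 0.307%, 0.212% and 0.110% of all sites met it.

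In the shortened lists most members met no such rule. Of the 1371, 1247 were followed by none of the 4 targets, and 496 held no kept peak of any of them in the 6 high-SOX2 libraries. These numbers depend on the shortening, since with all deposited peaks β-catenin followed at 785 members. β-catenin alone followed at 82 members, β-catenin with TCF7L1 at 25, and both with TCF7L2 at 4. LEF1 joined β-catenin and TCF7L1 at 2 members, and TCF7L1 followed without β-catenin at 7. The shares of all SOX2 sites with these combinations of targets were not counted.

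A followed member with high folds in naive ESCs lay in an intron of Fam49b (chr15:64043854-64044608), whose product restrains RAC1 signalling. β-catenin was listed there at 113, 71.4 and 95.3 in naive ESCs and at 26.0, 9.74 and 17.8 in SOX2-ON cells, with 3.73 in CEpiLC replicate 1, 4.25 in SOX2-OFF replicate 1 and no peak in the other 4 low-SOX2 libraries. TCF7L1 stood at 151, 139 and 259 in naive ESCs and at 18.7 and 36.3 in SOX2-ON replicates 2 and 3. Naive ESCs were higher than SOX2-ON cells for both targets and also for SOX2, with 20.8, 29.3 and 31.6 against 12.4 and 7.89 in replicates 1 and 3.

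The site in the A-kinase anchoring protein gene Akap2 had the reverse tendency, with β-catenin folds of 54.6, 34.2 and 38.1 in naive ESCs and 64.1, 67.7 and 77.0 in SOX2-ON cells, which did not overlap. Near Tmem132b, β-catenin (56.0, 38.0 and 52.3 in naive ESCs, 61.0, 32.3 and 40.5 in SOX2-ON cells), TCF7L1 and LEF1 all followed SOX2, and none of the 4 targets had any deposited peak in a low-SOX2 library. The intron of Abcb5 was the other member with these 3 targets. There SOX2-OFF cells retained β-catenin at 17.8 and 10.0 in replicates 1 and 3 and TCF7L2 at 8.15, 12 and 18.1. TCF7L1 was listed in the same cells at 9.83, 13.0 and 8.75, below the kept peaks, while CEpiLCs listed no peak of any of the 4 targets.

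At the Xist and Tsix site β-catenin stood at 69.8, 57.1 and 89.9 in naive ESCs and at 26.5, 23.6 and 23.3 in SOX2-ON cells, with no peak in low-SOX2 libraries. TCF7L1 stood at 138, 104 and 234 in naive ESCs and at 4.67, 33.4 and 56.4 in SOX2-ON cells, of which the 4.67 of replicate 1 was not among the kept peaks. Low-SOX2 libraries listed it at 8.13 in CEpiLC replicate 2 and at 9.27 in SOX2-OFF replicate 2, also outside the kept peaks. The deposited folds of both targets and of SOX2 were higher in naive ESCs than in SOX2-ON cells, without overlap. They were not adjusted for the scale of each library, which for TCF7L1 was higher in naive ESCs at members in general.

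Among genes of the lists, β-catenin followed SOX2 at the members of Il6st, Klf4, Esrrb, Zfp281, Dnmt3a, Pax3, Sp8, Fgf3 and Smad7. At Il6st, whose sequence holds 2 SOX matches and no TCF match, β-catenin was 29.0, 25.5 and 37.8 in naive ESCs and 13.6, 8.83 and 17.8 in SOX2-ON cells, and 4.01 in SOX2-OFF replicate 1 was the only low-SOX2 peak. At Klf4 it was 49.5, 21.7 and 50.7 in naive ESCs and 23.1, 20.8 and 28.4 in SOX2-ON cells, with 4.70 in SOX2-OFF replicate 1. Klf2 did not meet the rule. β-catenin there was kept in the 3 naive ESC libraries, at 49.2, 43.3 and 58.2, but the 9.11, 7.99 and 12.5 of SOX2-ON cells fell short of the kept peaks.

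Pax3 was a member at which β-catenin, TCF7L1 and TCF7L2 all followed. In its intron (chr1:78167527-78168490), with 3 TCF matches within 100 bp of the summit, TCF7L2 stood at 16.3, 18.1 and 17.6 in naive ESCs and at 14.3, 12.9 and 15.2 in SOX2-ON cells, with 6.23 in CEpiLC replicate 2. β-catenin stood at 52.1, 28.8 and 36.1 in naive ESCs and at 46.1, 43.7 and 24.8 in SOX2-ON cells, with 4.31 in CEpiLC replicate 1. The 2 high-SOX2 conditions overlapped for β-catenin but not for TCF7L2. LEF1 was kept in 4 of the 6 high-SOX2 libraries.

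Herc1, Akap2 and Glis3 were the other 3 members of this kind. At Herc1, which encodes a ubiquitin ligase, TCF7L2 stood at 6.80, 13.3 and 12.4 in naive ESCs and at 8.95, 7.14 and 18.9 in SOX2-ON cells, and no low-SOX2 library listed it. β-catenin and TCF7L2 without TCF7L1 followed near Errfi1 and Zfp281. At Errfi1, an inhibitor of EGF receptor signalling, β-catenin was also listed in CEpiLC replicates 1 and 2 at 6.69 and 7.22 and in SOX2-OFF replicates 1 and 3 at 9.83 and 9.43, below the kept peaks. Near the neural transcription factor gene Olig3, β-catenin stood at 75.8, 36.2 and 80.0 in naive ESCs and at 24.2, 22.1 and 22.8 in SOX2-ON cells, with no low-SOX2 peak.

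The promoter of Porcn showed the contrary pattern. TCF7L2 had a kept peak there in 5 of 6 high-SOX2 and 6 of 6 low-SOX2 libraries, from 4.18 to 12.3 in the high and from 6.43 to 15.2 in the low libraries, which overlapped. SOX2 had a kept peak in 6 of 6 high and 0 of 6 low libraries at the same site. LEF1 followed SOX2 near Tnfrsf19, among the 9 members with the OCT-SOX composite, at 21.6 and 13.3 in naive ESC replicates 2 and 3 and at 25.0, 46.7 and 22.4 in SOX2-ON cells.

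Members were not the sites most occupied by the other targets in high-SOX2 cells. Averaged over the 6 high-SOX2 libraries, β-catenin had a kept peak at 23.4% of members and 40.1% of kept sites. LEF1 had 13.6% and 20.9% (16.2% and 24.9% without naive ESC replicate 1), TCF7L1 had 10.3% and 22.5%, and TCF7L2 had 5.03% and 14.8%. Members were lower in 6 of 6 libraries for each target, with an exact two-sided sign-flip permutation p of 0.03125 and the same adjusted p, the smallest possible. Kept sites were wider than members, and the part of width in this difference was not tested. This comparison was chosen after the data were seen.

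Occupancy of the other targets went with the strength of SOX2 among members. In the quartile of lowest SOX2 fold (6.56 to 10.3), β-catenin had a kept peak at a median of 9.83% of members per high-SOX2 library, with a range of 6.65% to 12.4%. The next quartiles had 17.4%, then 25.0%, and that of highest fold (16.3 to 67.3) had 42.6%, with a range of 36.2% to 44.6%. The β-catenin shares of the lowest and highest quartiles did not overlap. Between the same quartiles the medians of TCF7L1 went from 3.61% to 23.2%, those of LEF1 from 3.47% to 23.6% and those of TCF7L2 from 1.45% to 7.73%. The LEF1 libraries spread from 0.583% to 54.5% in the highest quartile. β-catenin followed SOX2 at 5 of 346 members of the lowest quartile and at 66 of 343 of the highest. The 115 members where it followed had a median SOX2 fold of 18.1, compared with 12.4 for the others, and 2 of them (1.74%) lay at a promoter. Quartiles of members share the same 12 SOX2 libraries and differ in site width, so this is a description.

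**Figure D2:**
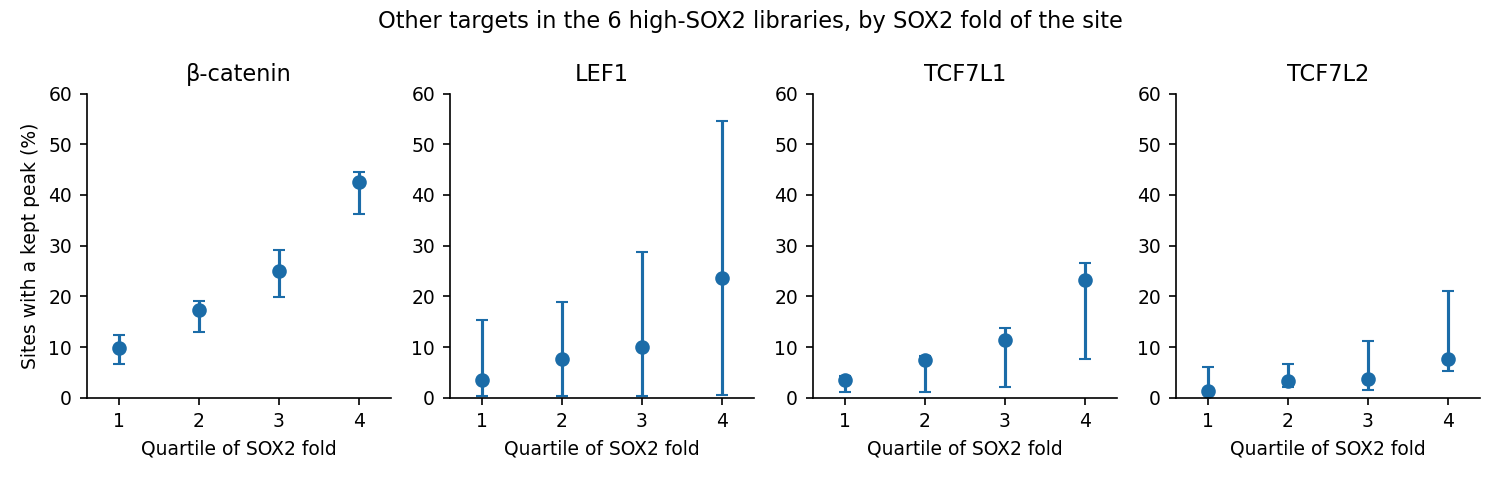
Share of members with a kept peak of each target (percent, y axis) by quartile of the median deposited SOX2 fold (x axis), with 340 to 346 members per quartile. Dots are the medians of the 6 high-SOX2 libraries and bars run from the lowest to the highest library. The β-catenin medians go from 9.83% to 42.6%, and the LEF1 bars overlap between all quartiles.

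Where a target had a kept peak at a member, its summit lay close to that of SOX2. The median distance was 33 to 46 bp for β-catenin across the 6 high-SOX2 libraries, with 54.8% to 68.6% of summits within 50 bp. It was 30 to 44 bp for TCF7L1, 39 to 56.5 bp for TCF7L2 and 41 to 65 bp for LEF1 without naive ESC replicate 1, which had 5 such peaks.

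Of the sequences searched within 100 bp of the summit, that of SOX was the most frequent. It was found at 1044 of 1371 members (76.1%, 95% Wilson interval 73.8 to 78.3), against 34.3% of low-SOX2 sites, 62.6% of kept sites, 41.5% of all SOX2 sites and 27.6% of windows 5000 bp to either side of the members. Both forms were more frequent in members than in low-SOX2 sites, with CATTGT at 41.5% against 8.90% and CTTTGT at 55% against 26.9%. Members held 1.33 SOX matches each on average, low-SOX2 sites 0.395 and kept sites 0.870. Matches were repeated at 526 members (38.4%), with 2 or more within the window. The site near Tnfrsf19 shown above held 8 within 100 bp of its summit. SOX matches clustered at the summit, with 10.4% of members holding one in the 10-bp bin centred 10 bp to its left.

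**Figure D3:**
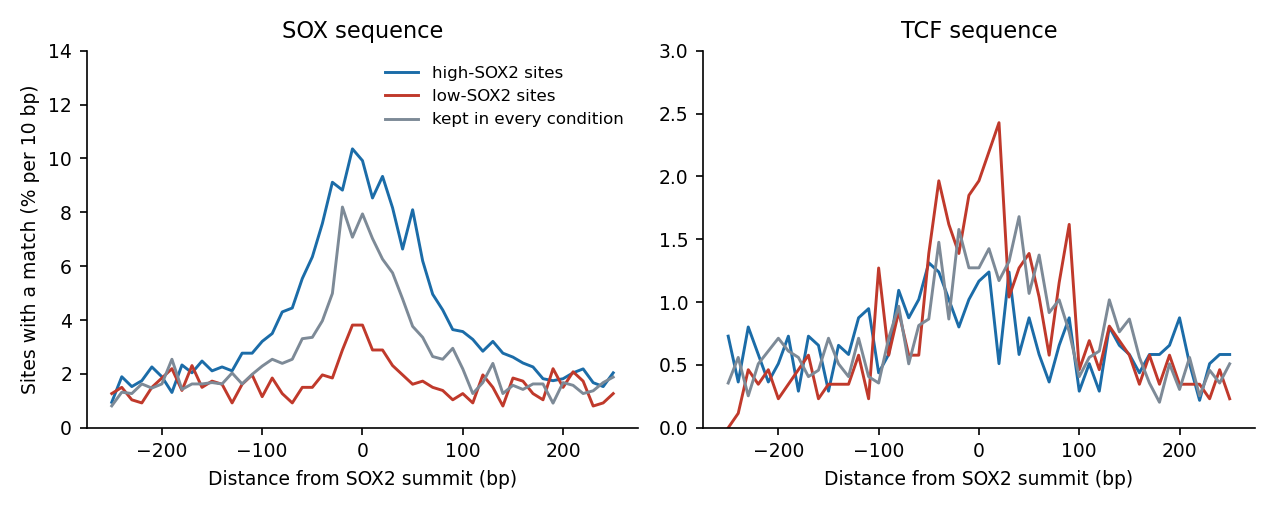
Percent of sites (y axis) with a SOX or TCF match in 10-bp bins by distance from the SOX2 summit (x axis, bp) for members, low-SOX2 sites and kept sites. The 2 panels differ in their y scale. The SOX curve of members is highest beside the summit, at 10.4%, above the 8.20% maximum of kept sites and the 3.82% of low-SOX2 sites, while the TCF curve of members reaches 1.31%.

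The OCT4 sequence ATGCAAA was found at 9.12% of members, 8.67% of low-SOX2 sites and 13.8% of kept sites. The joined OCT-SOX composite, which in each case includes a SOX match, was found at 9 members (0.656%), at 1.39% of low-SOX2 sites, at 2.34% of kept sites and at 0.219% of all SOX2 sites. The TCF sequence was found at 15.4% of members, 23.9% of low-SOX2 sites, 18.5% of kept sites and 11.5% of all SOX2 sites. The other sequences stood near their level over all SOX2 sites, with AAGGTCA for ESRRB at 5.98% against 4.91%, GGGTGTG or GGGCGTG for KLF factors at 6.35% against 6.93%, TTTATGG or TTTATTG for CDX at 7.0% against 7.01%, and GGTGTG for T at 13.6% against 13.7%. AATCCACA or AATACACA for FOXH1 was found at 4.30% against 2.20%. GGTGTG is contained in GGGTGTG, and the SOX form CTTTGT and the TCF form differ in their last letters only. Members were richer in A and T than the other sets of SOX2 sites, with a median GC content of 44.3% against 51.7% in low-SOX2 sites, 48.8% in kept sites and 46.8% in all SOX2 sites. The windows 5000 bp away had 43.3%.

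**Figure D4:**
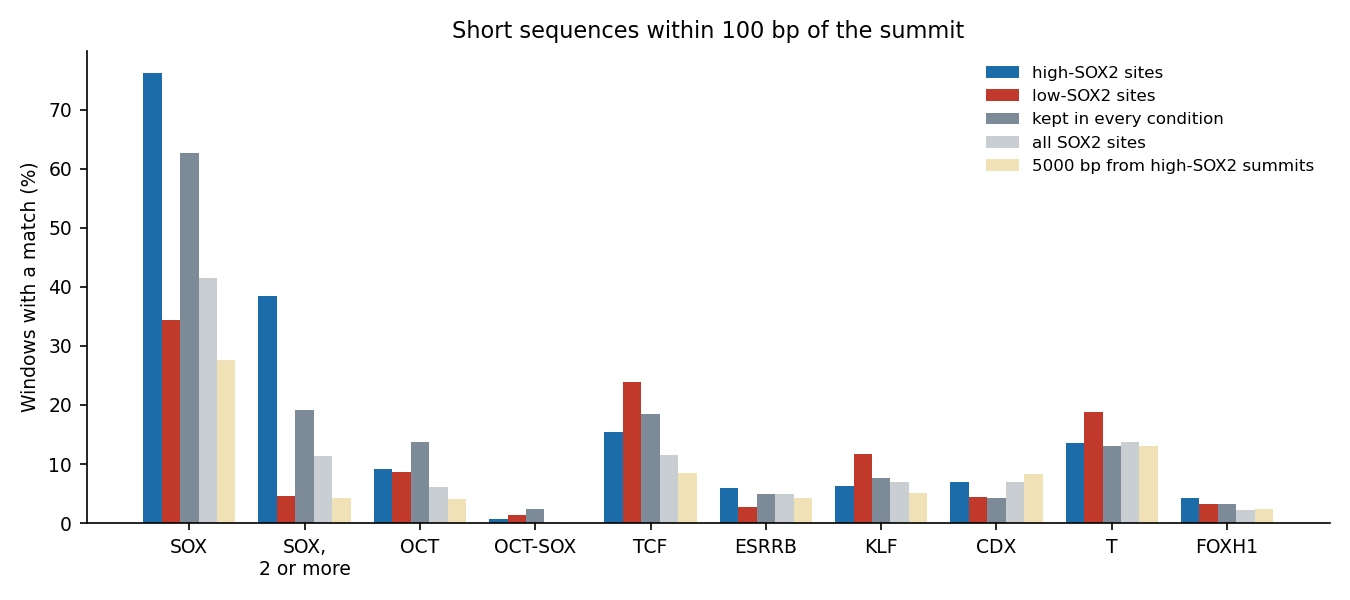
Percent of windows within 100 bp of a summit (y axis, bars start at 0) that hold each searched sequence, for members, low-SOX2 sites, kept sites, all SOX2 sites and windows 5000 bp from member summits. The SOX bar of members, at 76.1%, is above those of the 4 other sets, and the TCF bar of members, at 15.4%, lies below the 23.9% of low-SOX2 sites.

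The TCF sequence, found at 15.4% of members as a whole, was unevenly divided among them. It was found at 7.21% of the 680 members without a kept β-catenin peak in any high-SOX2 library, at 15.8% of the 329 with 1 or 2, at 24.7% of the 239 with 3 or 4 and at 41.5% of the 123 with 5 or 6. The SOX sequence stood at 75.3%, 78.7%, 75.7% and 74.8% in the same order. The TCF share was also higher where TCF7L2 had a kept peak in at least 3 high-SOX2 libraries, at 52.8% of 36 members against 14.4% of the rest. For TCF7L1 it was 39.9% of 163 against 12.1%, and for LEF1 36.4% of 107 against 13.6%. Members followed by TCF7L1 had a TCF match in 60.5% of 38 cases and a SOX match in 57.9%. Outside the members, SOX2 sites with β-catenin in 5 or 6 high-SOX2 libraries had the TCF sequence in 49.8% of 1064 cases and those without β-catenin in 9.95%, so the division is not particular to members. It did not go with SOX2 fold, as the 4 quartiles had TCF shares of 15.6%, 14.4%, 13.7% and 17.8%. Some followed members, Il6st, Akap2, Klf4 and the Xist site among them, held no exact TCF match in this window.

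**Figure D5:**
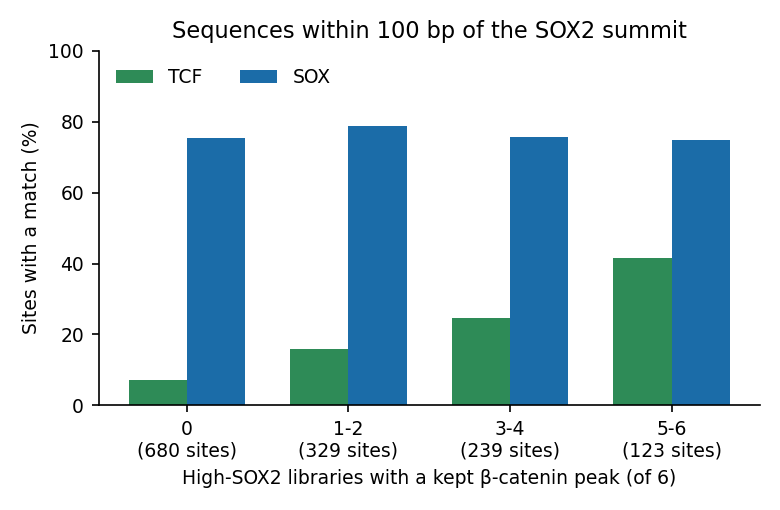
Percent of members (y axis) with a TCF or a SOX match within 100 bp of the summit, by the number of high-SOX2 libraries with a kept β-catenin peak (x axis: 0, 1–2, 3–4 and 5–6 of 6). The TCF bars go from 7.21% to 41.5% and the SOX bars lie between 74.8% and 78.7%.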

How the data were processed

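Peak lists of 60 ChIP–seq libraries were used, with 5 targets, 4 conditions and 3 biological replicates, which the study describes as separate experiments. The 4 input samples had no list and were not used. Per the labels and the study's methods, the authors aligned single-end reads of cells fixed with DSG and formaldehyde to mm10 with BWA through nf-core/chipseq and called narrow peaks per library, not on pooled replicates, with MACS2 at q below 0.05. The deposited columns are the fold enrichment of the peak (a linear ratio) and the −log10 p-value and −log10 q-value. The lists carry no read counts, so depth and a count test were out of reach here, and a ratio can shift with library complexity and input. The study tested read counts with DESeq2, which was not used here.

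Peaks were ranked by deposited fold. Peaks of other targets counted at a site if they shared 1 bp. The index added 0.5 to each count. Tests were two-sided exact permutation tests over libraries, with Benjamini-Hochberg adjustment over the 4 targets and a threshold of 0.05. The code was tested on simulated lists. Gene positions came from GENCODE vM21 (protein-coding, basic set) and sequence from RefSeq GRCm38.p6, in which 0 of 12175735 deposited peaks passed a chromosome end. Exact motif matches were sought on both strands. Sites were named by rule: the 10 strongest SOX2 members with 6 of 6 high and 0 of 6 low libraries, up to 3 per gene list, up to 5 per target or set of targets that followed, and the 10 genes with most members. A site that this rule selects is not reported here. Members and gene lists were chosen with earlier results of these data known. Alternatives were all deposited peaks, 10000 SOX2 peaks, p-value ranking, stricter rules, other overlaps, windows and distances, a replicate block and libraries left out. Python 3.11.15, numpy 2.4.6, pandas 2.3.3, scipy 1.17.1 and matplotlib 3.10.9 were used.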

Additional observations from a re-analysis of the deposited data

Results flagged for a closer look

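The loss of the other targets from members differed in size between the 2 cell lines. The naive ESC minus CEpiLC difference of the index exceeded the SOX2-ON minus SOX2-OFF difference by 3.31 for β-catenin, 2.70 for TCF7L1 and 1.92 for TCF7L2, with exact permutation p-values of 0.035, 0.03 and 0.03 and an adjusted p of 0.0467 for each. For LEF1 the difference between lines was 0.10 (exact permutation p = 0.94). It lay mainly in the low-SOX2 libraries, where β-catenin had a kept peak at 3, 4 and 0 members in CEpiLCs and at 17, 15 and 15 in SOX2-OFF cells, so the index rests on few members there. In percentage points of members the differences were 2.14, 3.31 and 2.50 for β-catenin, TCF7L1 and TCF7L2, and -7.37 for LEF1, each with an adjusted exact permutation p of 0.43. With each of the 12 libraries left out in turn the adjusted p stayed below 0.05 in 3 cases for each of the 3 targets, and ranged from 0.02 to 0.0933 for β-catenin and from 0.02 to 0.08 for TCF7L1 and TCF7L2. CEpiLCs and SOX2-OFF cells differ in genotype and in how SOX2 was lowered, which cannot be told apart from the line.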

How the results depend on the processing

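The index differences of the 4 targets kept their direction in all 96 alternatives and their side of the threshold in the 84 that did not leave out a whole replicate. They ranged from 5.04 to 8.73 (β-catenin), 3.34 to 6.98 (LEF1), 4.83 to 8.73 (TCF7L1) and 2.48 to 5.24 (TCF7L2) across other settings and from 5.74 to 6.53, 4.25 to 4.91, 5.62 to 6.14 and 3.43 to 3.82 with any single library left out. Without a whole replicate they were 5.51 to 7.18, 4.18 to 5.82, 5.49 to 6.92 and 3.28 to 3.80 in that order, with an exact permutation p of 0.0556, the smallest 2 replicates allow.

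Counts depended more on the processing. The 1371 members became 5015 with all deposited SOX2 peaks, 386 with 6 of 6 and 0 of 6, 766 with absence judged in the full lists, 537 to 970 without 1 of the replicates and 2068 without SOX2 naive ESC replicate 1 (4 of 5 libraries). Ranked by p-value there were 1431, and 1240 members (90.4%) overlapped them. With all deposited peaks of the target the followed members numbered 785 (β-catenin), 293 (LEF1), 647 (TCF7L1) and 38 (TCF7L2). With 6 of 6 and 0 of 6 they were 54, 0, 9 and 3, and without 1 of the replicates 73 to 81, 0 to 6, 9 to 38 and 3 to 7. LEF1 had 43 without naive ESC replicate 1 and TCF7L1 had 70 without SOX2-ON replicate 1. Apart from the 43 and the 70, the share of all SOX2 sites meeting these altered rules was not counted. These counts thus show how the number of members moves and not whether it is particular to members. The SOX share of members was 59.3% within 50 bp, 88.6% within 250 bp and 84.0% with TATTGT counted as well (added after seeing the data), and the promoter share 5.47% at 2500 bp. Counting genes with a start within 50 kb of a member gave 0 primed epiblast, 4 neural, 2 caudal and 1 Nodal or BMP gene. The constructions themselves, with longer or shorter lists, stricter rules or fewer libraries, set these counts.

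With replicate number as a block, the index differences were 6.23, 4.55, 5.93 and 3.62, each with an adjusted exact permutation p of 0.03125, and the block changed no call. Same-numbered libraries deviated together weakly or not at all, with correlations over sites from -0.0530 to 0.153. They were above 0.1 in 4 of 18 pairs for TCF7L1, with 0.123, 0.142 and 0.153 among the replicates 1 of SOX2-ON, CEpiLC and SOX2-OFF, and in 0 of 18 for each of the others. The libraries closest to their own number were 9 of 12 (β-catenin), 8 (TCF7L1), 6 (LEF1) and 6 (TCF7L2), where 4 would be so if the numbers carried nothing. Since not every pair was above 0.1, the test without the block did not take the numbers as pairs. The counts of libraries closest to their own number were all above 4. The p-values with the block, which respect the numbers, therefore belong beside those without it.

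Depth is unknown and lists differ in length, and absence from a list is absence above that list's own threshold. A kept peak is a rank within a library, not an amount of bound protein. The index shows where a target's strongest peaks lay and not how much of the target there was in the cells.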

Other observations

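Reading the windows brought up a further SOX-like word that the search had not counted. TATTGT, searched on both strands, occurred within 100 bp of the summit at 423 members (30.9%), against 8.90% of low-SOX2 sites, 19.5% of kept sites, 13.9% of all SOX2 sites and 11.3% of windows 5000 bp away. Counted together with CATTGT and CTTTGT, it brought the share of members with a match to 84.0%, compared with 41.4% of low-SOX2 sites, 72.0% of kept sites and 49.3% of all SOX2 sites. It is present in the Apol7a window shown in the report. The word was chosen after these sequences were seen.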
